A study of Mus musculus with 39 samples.

Results

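The node of Ranvier and its flanking paranode are described here through 10 genes, taken as a fixed list: Nfasc, Nrcam, Ank3, Sptbn4, Cntn1, Cntnap1, Cntn2, Gldn, Gjb1 and Cadm4. They were found by symbol among the 55573 genes of the count tables, and 9 of the 10 had enough reads to be tested among 18442 genes. Cntn2 did not pass the filter on low counts and is given by its counts alone. All 10 symbols matched 1 protein-coding gene each, and their positions below are those of GENCODE M21 on GRCm38.

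The tissue was endoneurium of the distal sciatic nerve, the inside of the nerve after the perineurium had been stripped off, from C57BL/6 mice of both sexes aged 2 to 4 months. Lepr-ctrl mice carried floxed Lepr alleles (Leprfl/fl), and Lepr-cKO mice carried the same alleles together with Dhh-Cre, which is active in Schwann cells and removes exon 1. According to the study, these mutants still make a shortened receptor that lacks the signal peptide and does not reach the cell surface. The sciatic nerve of one side was crushed (injured nerve), the contralateral nerve served as the healthy nerve, and both were taken at 2 or 4 weeks post crush (wpc) in different mice. There were 5 healthy and 5 injured Lepr-ctrl nerves and 6 healthy and 5 injured Lepr-cKO nerves at 2 wpc. At 4 wpc there were 5 healthy and 4 injured nerves of each genotype, giving 39 libraries from 22 mice, of which 17 gave both nerves. Lepr itself was counted at 9.38 ± 1.68 CPM (SD, n = 5) in healthy and 53.3 ± 17.7 CPM (SD, n = 5) in injured Lepr-ctrl nerves at 2 wpc, and at 69.7 ± 33.0 CPM (SD, n = 5) in injured Lepr-cKO nerves. Counts over the whole gene do not show whether exon 1 is present, so they do not check the genotype.

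At the node, sodium channels are held in the axonal membrane by adhesion molecules and a scaffold of ankyrin and spectrin. Microvilli of the Schwann cell contact this membrane and secrete proteins that gather the channels. At the paranode next to it, loops of the myelin sheath are sealed to the axon by a contactin complex, and beyond it the internode is lined by a further set of adhesion molecules. When a nerve is crushed, axons distal to the crush degenerate, Schwann cells give up their myelin, and nodes are built anew as axons regrow and are remyelinated. The cell bodies of the axons lie outside the dissected tissue, so most of the RNA comes from Schwann cells and other cells of the nerve. In bulk tissue, fewer cells of a type and less RNA per cell cannot be told apart.

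Each library held between 10905806 and 45016322 counts (median 27752451), with the fewest in injured nerves at 4 wpc. Expression is given as counts scaled to library size (CPM, with TMM factors), and levels of different genes are compared only as RPKM, which also divides by gene length. Mice are named M with the animal number of the labels. The share of mitochondrially encoded counts was 1.92% to 4.25% in healthy nerves and 2.95% to 33% in injured nerves. The summed CPM of 5 Schwann cell markers was 40020 to 58430 in healthy nerves, 6935 to 34500 in injured nerves at 2 wpc and 12980 to 46140 in injured nerves at 4 wpc. The summed CPM of 8 neuronal markers was 161.2 to 240.3 in healthy nerves and 91.9 to 131.8 in injured nerves, with the exception of 200.4 in injured Lepr-cKO mouse M169. Of these markers, 4 of 5 Schwann cell and 6 of 8 neuronal genes fell with injury in Lepr-ctrl nerves at 2 wpc, where 30.2% of all genes tested fell. The neuronal sum hides opposite changes. In Lepr-cKO nerves at 4 wpc, mean Tubb3 was 13.2 CPM in healthy and 59.1 CPM in injured nerves, with 120.1 CPM in mouse M169. The other neuronal markers had lower means in the injured nerves there, such as Nefl (12.5 CPM in healthy, 3.36 CPM in injured) and Nefh (20.8 and 2.57 CPM). Macrophage markers (6 genes) summed to 45.3 to 151.5 CPM in healthy and up to 696.9 CPM in injured nerves. In Lepr-ctrl nerves at 2 wpc 4 of the 6 rose, where 33.7% of all genes tested rose.

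In all, 3 injured libraries stood apart. That of Lepr-ctrl mouse M144 at 2 wpc had the highest mitochondrial share (33%) and the lowest Schwann cell marker sum (6935 CPM) of all libraries. That of Lepr-cKO mouse M126 at 2 wpc held 45980 CPM of 10 skeletal muscle markers, against at most 35.8 CPM in any other library. That of Lepr-cKO mouse M169 at 4 wpc had the lowest mitochondrial share of the injured libraries (2.95%) and the highest Schwann cell marker sum of them (46140 CPM). Results whose call changed, or whose called value moved by over 1.5 times, when 1 of these libraries was left out are given with and without it, and the part that cell make-up and mitochondrial share play in the results below was not tested.

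Promoters are shown for Gjb1, Cadm4 and Gldn, the 3 members listed here for their role in the Schwann cell, which fell in the injured Lepr-ctrl nerves described below. Other members can be made by Schwann cells as well, such as Nfasc with its glial form. These windows were chosen after the matches in them had been seen. RefSeq (GRCm38.p6) gave start sites for 8 of the 10 members, 17 windows in all. Each line is the 250 bases before a start site, 5′ to 3′ on the strand of the gene, with capitals marking matches on either strand to ACAAAG or ACAATG (SOX), GTGGGCG or GTGGGTG (EGR), GGAATG (TEAD) and TGACTCA (AP-1). For Gjb1, the last of 4 start sites is shown because it held the most matches of the 17 windows.
Gjb1, chrX:101383482-101383731, plus strand: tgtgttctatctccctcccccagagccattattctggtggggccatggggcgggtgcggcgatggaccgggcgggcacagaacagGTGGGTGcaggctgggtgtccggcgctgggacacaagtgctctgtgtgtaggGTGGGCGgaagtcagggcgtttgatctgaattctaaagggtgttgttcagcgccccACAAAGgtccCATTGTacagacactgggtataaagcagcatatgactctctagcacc
Cadm4, chr7:24481773-24482022, plus strand: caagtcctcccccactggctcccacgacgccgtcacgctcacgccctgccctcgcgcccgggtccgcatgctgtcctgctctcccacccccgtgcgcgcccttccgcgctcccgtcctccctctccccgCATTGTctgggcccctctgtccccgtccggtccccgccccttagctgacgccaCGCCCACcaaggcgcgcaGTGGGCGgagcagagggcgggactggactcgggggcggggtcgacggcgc
Gldn, chr9:54286236-54286485, plus strand: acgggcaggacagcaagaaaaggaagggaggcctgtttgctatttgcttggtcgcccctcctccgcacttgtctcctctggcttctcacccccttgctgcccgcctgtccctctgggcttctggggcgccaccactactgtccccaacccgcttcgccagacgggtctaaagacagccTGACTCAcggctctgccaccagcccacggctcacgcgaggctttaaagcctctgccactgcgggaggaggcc

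The Gjb1 window held 2 SOX and 2 EGR matches, the Cadm4 window 1 SOX and 2 EGR matches, and the Gldn window 1 AP-1 match. Such letters are common: of 32851 RefSeq windows of the same length, 25.2% held a SOX match, 13.8% an EGR match, 12.6% a TEAD match and 4.46% an AP-1 match. Among the 17 windows of the members, 4 held a SOX match, 3 an EGR match, 1 a TEAD match and 1 an AP-1 match. In the single Nrcam window, 2 GTGGGTG matches overlapped. The windows of Nfasc, Sptbn4 and Cntn2 held no match to these letters. A match is a run of letters and not a measured site.

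In healthy Lepr-ctrl nerves at 2 wpc, Cadm4, a Schwann cell adhesion molecule of the internode, was the most abundant member per length, at 955 ± 118 RPKM (SD, n = 5). Gldn, which encodes the secreted microvillar protein gliomedin, had 106.7 ± 11.3 RPKM, and Gjb1, a connexin that forms gap junctions between the layers of the myelin sheath, had 101 ± 8.59 RPKM. The ranges of these 2 genes overlapped, so their order is not set. Nfasc followed at 58.6 ± 4.95 RPKM, Ank3 at 14.5 ± 2.05 RPKM and Nrcam at 7.21 ± 0.59 RPKM. The paranodal partners Cntnap1 and Cntn1 had 2.21 ± 0.29 and 1.46 ± 0.437 RPKM with overlapping ranges. Sptbn4 reached 0.11 ± 0.0145 RPKM and Cntn2 0.0121 ± 0.00692 RPKM. After injury Cntn1 dropped to the level of Sptbn4, 0.0576 ± 0.0351 against 0.0632 ± 0.0593 RPKM (SD, n = 5 each).

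Which of these genes changed after the crush was asked first. In Lepr-ctrl nerves at 2 wpc, 7 of the 9 members tested fell and 1 rose, where 30.2% of all genes tested fell and 33.7% rose. In Lepr-cKO nerves at 2 wpc, 8 of 9 fell and 0 rose, against 29.2% and 35.9% of all genes. In Lepr-ctrl nerves at 4 wpc, 8 fell and 0 rose, against 31.2% and 32.4%, and in Lepr-cKO nerves at 4 wpc 7 fell and 0 rose, against 25.8% and 29.6%. The median log2 fold change of the members was -1.14, -1.31, -2.10 and -1.27 in these 4 comparisons, and that of all genes tested was 0.08, 0.10, 0.02 and 0.06. The healthy and injured values did not overlap in 7, 7, 8 and 7 members, against 47.9%, 41.4%, 54.8% and 41.9% of all genes. With the 3 libraries that stand apart left out, 8 members fell in each of the 4 comparisons. Calls here are a Benjamini-Hochberg adjusted p under 0.05 over all genes tested in edgeR's quasi-likelihood test, and every p in the text below is adjusted in this way unless said otherwise.

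**Figure D1:**
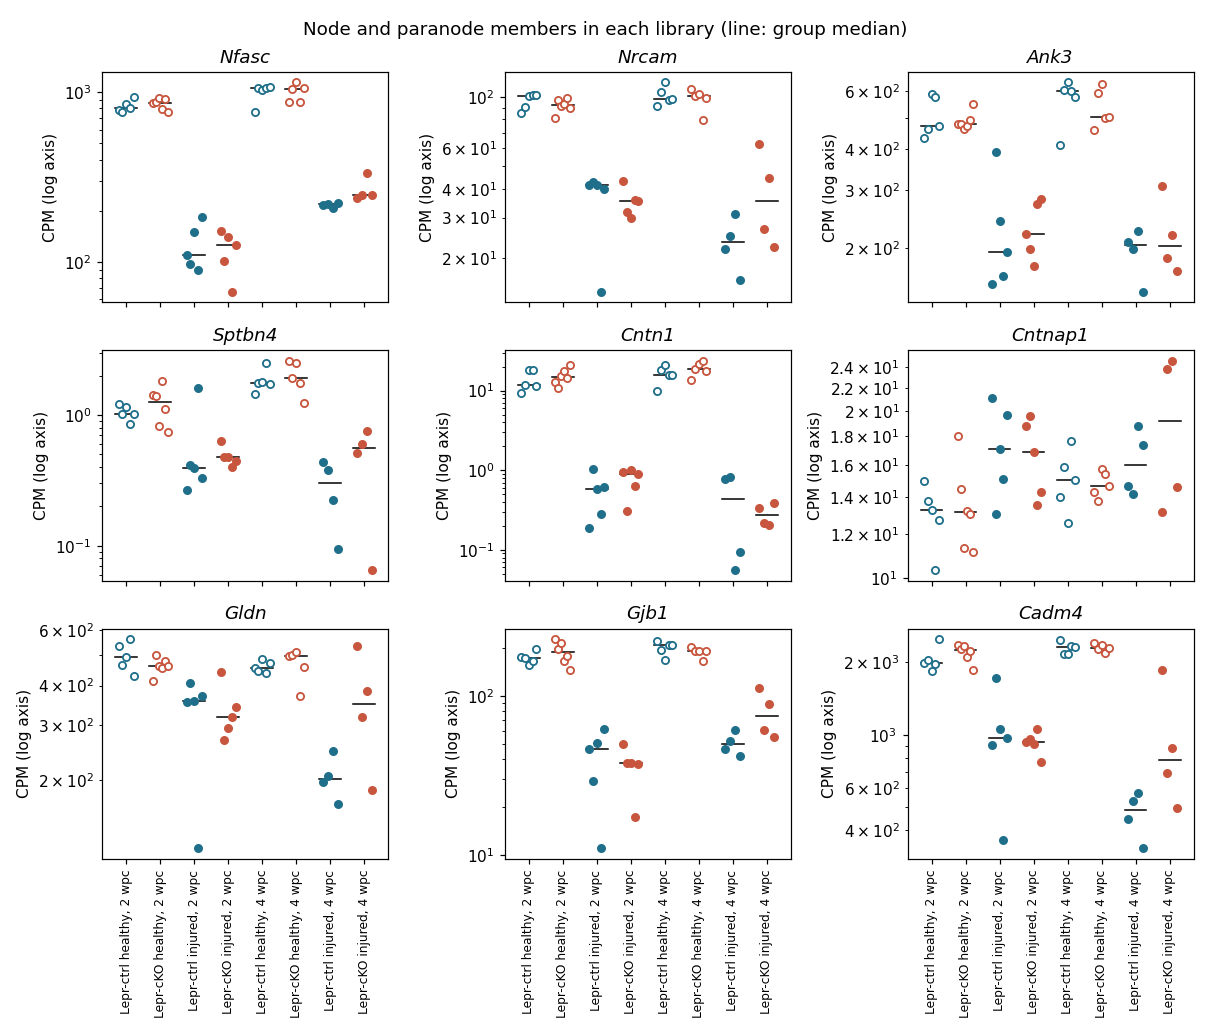
CPM on log axes of the 9 tested members in each library, open points for healthy and filled points for injured nerves, blue for Lepr-ctrl and red for Lepr-cKO, with a black line at the median of each group. Cntn1 lies between 9.28 and 23.8 CPM in healthy and at or below 1.03 CPM in injured nerves, whereas healthy and injured values of Cntnap1 overlap.

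Cntn1 (chromosome 15, 92051165 to 92341967, plus strand), the contactin that anchors the paranodal complex to the axon, showed the largest decrease of the members. In healthy Lepr-ctrl nerves at 2 wpc it was at 9.28, 11.6, 11.8, 18.2 and 18.2 CPM, and in the injured nerves at 0.191, 0.285, 0.588, 0.623 and 1.03 CPM. At 4 wpc the healthy Lepr-ctrl nerves had 9.79, 15.8, 15.9, 17.9 and 20.7 CPM and the injured nerves 0.0557, 0.0939, 0.784 and 0.8286 CPM. The groups did not overlap. The log2 fold change was -4.62 ± 0.37 (SE) at 2 wpc (adjusted p = 1.12e-12) and -5.19 ± 0.46 at 4 wpc (adjusted p = 1.03e-11). In Lepr-cKO nerves, healthy values were 10.7 to 21.0 CPM at 2 wpc and 13.7 to 23.8 CPM at 4 wpc, and injured values 0.311 to 0.992 CPM and 0.203 to 0.391 CPM. The changes there were -4.34 ± 0.36 and -6.04 ± 0.47 on the log2 scale (adjusted p = 1.58e-12 and 1.47e-12). The injured values rest on few reads, 1 to 33 counts per library.

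Cntnap1, which encodes the contactin-associated protein that pairs with Cntn1 at the paranode, did not fall with it. Its healthy values in Lepr-ctrl nerves at 2 wpc were 10.3, 12.7, 13.3, 13.8 and 14.95 CPM, and its injured values 13.1, 15.1, 17.1, 19.7 and 21.2 CPM. The ranges overlapped, and the log2 fold change was 0.40 ± 0.16 (adjusted p = 0.0247). It was 0.30 ± 0.15 in Lepr-cKO nerves at 2 wpc (adjusted p = 0.0807), 0.11 ± 0.17 in Lepr-ctrl (adjusted p = 0.578) and 0.37 ± 0.17 in Lepr-cKO nerves at 4 wpc (adjusted p = 0.0605, and 0.51 with adjusted p = 0.0102 without the injured nerve of M169). The rise at 2 wpc in Lepr-ctrl was lost without the healthy nerve of M131 or the injured nerve of M123 or M147 (0.30 on the log2 scale and adjusted p = 0.109 without injured M123). The gene (chromosome 11, 101170523 to 101190724, plus strand, GRCm38) overlaps Plekhh3 and Ccr10 on the opposite strand, with up to 1412 and 91 counts in a library. Strand use in counting is not stated in the sources used here, so reads in the overlap cannot be told apart.

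Nfasc (chromosome 1, 132564690 to 132741797, minus strand) encodes neurofascin, with a neuronal form at the node and a glial form at the paranode that a count over the whole gene does not separate. Healthy Lepr-ctrl nerves had 764, 783, 805, 850 and 940 CPM at 2 wpc and injured nerves 89.7, 96.9, 109, 149 and 184 CPM. At 4 wpc the healthy nerves had 759, 1024, 1048, 1053 and 1074 CPM and the injured nerves 207, 217, 218 and 221 CPM. The groups did not overlap at either time. The decrease was 6.59-fold at 2 wpc (log2 fold change -2.72 ± 0.18, adjusted p = 6.04e-15) and 4.59-fold at 4 wpc (-2.20 ± 0.19, adjusted p = 6.38e-12). In Lepr-cKO nerves it was 7.27-fold at 2 wpc (-2.86 ± 0.18, adjusted p = 1.15e-15) and 3.75-fold at 4 wpc (-1.91 ± 0.19, adjusted p = 2.55e-10).

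Nrcam (chromosome 12, 44328885 to 44601964, plus strand), an adhesion molecule of the node that binds gliomedin, fell less. In Lepr-ctrl nerves at 2 wpc it was at 85.4 to 102.3 CPM in the healthy and at 14.3, 40.1, 41.4, 41.6 and 42.9 CPM in the injured nerves, with mouse M144 lowest. Its log2 fold change was -1.42 ± 0.21 (adjusted p = 5.69e-07), and -1.22 without mouse M144. At 4 wpc the Lepr-ctrl nerves had 91.3 to 115.7 CPM when healthy and 16.2, 21.9, 25.1 and 31.0 CPM when injured, a change of -2.10 ± 0.24 (adjusted p = 2.54e-09). Lepr-cKO nerves changed by -1.39 ± 0.21 at 2 wpc (adjusted p = 4.51e-07) and by -1.32 ± 0.23 at 4 wpc (adjusted p = 9.81e-06). None of these groups overlapped.

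Ank3 (chromosome 10, 69398773 to 70027438, plus strand), the ankyrin that ties nodal channels to the cytoskeleton, fell in all 4 comparisons. It was at 434 to 588 CPM in healthy and at 156, 165, 195, 242 and 394 CPM in injured Lepr-ctrl nerves at 2 wpc, the highest injured value being that of mouse M130. The log2 fold changes were -1.14 ± 0.19 and -1.08 ± 0.18 at 2 wpc and -1.54 ± 0.21 and -1.27 ± 0.20 at 4 wpc in Lepr-ctrl and Lepr-cKO, with adjusted p from 7.76e-08 to 3.96e-06. Sptbn4 (chromosome 7, 27356383 to 27447686, minus strand), the spectrin of the nodal scaffold, was near the limit of detection, with 23 to 105 counts in healthy and 1 to 34 counts in injured libraries. At 2 wpc its injured Lepr-ctrl values were 0.267, 0.330, 0.392, 0.419 and 1.61 CPM, with mouse M144 above every healthy nerve of its group (0.856 to 1.21 CPM). The change there was -0.84 ± 0.38 (adjusted p = 0.0537), and -1.57 without mouse M144 (adjusted p = 0.000227). Sptbn4 fell in the other 3 comparisons, by -1.31 ± 0.37 in Lepr-cKO at 2 wpc (adjusted p = 0.00235), -2.68 ± 0.48 in Lepr-ctrl at 4 wpc (adjusted p = 1.12e-05) and -2.01 ± 0.43 in Lepr-cKO at 4 wpc (adjusted p = 0.000171). With the mouse as a block, over the 17 mice with both nerves, which leave out mouse M144, the first of these comparisons was also called, at -1.52 on the log2 scale (adjusted p = 0.00255).

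**Figure D2:**
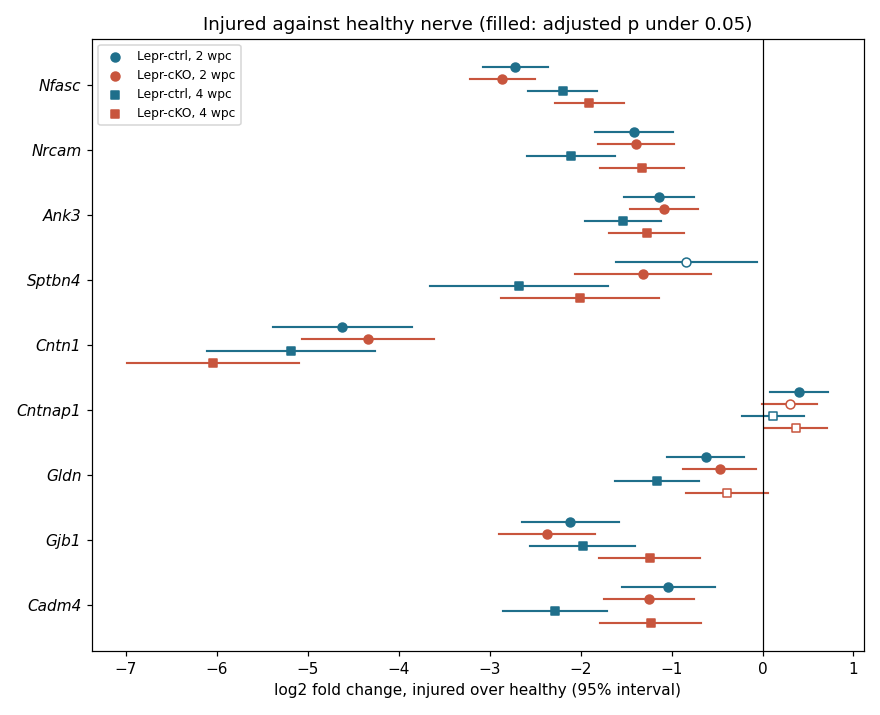
Log2 fold change of injured over healthy nerve (x axis) for each tested member (y axis) with its 95% interval, circles for 2 wpc and squares for 4 wpc, blue for Lepr-ctrl and red for Lepr-cKO, filled where the adjusted p is under 0.05. Cntn1 lies at -4.34 to -6.04 and Cntnap1 at 0.11 to 0.40.

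Gldn (chromosome 9, 54286486 to 54341786, plus strand) showed the smallest decrease of the members that fell in the 3 comparisons in which it was called. Healthy Lepr-ctrl nerves at 2 wpc had 430, 466, 495, 534 and 562 CPM, and injured nerves 122, 355, 358, 371 and 407 CPM, the lowest being mouse M144. The log2 fold change was -0.62 ± 0.21 (adjusted p = 0.00938), and -0.41 without mouse M144 (adjusted p = 0.0322). At 4 wpc the values were 438 to 486 CPM in healthy and 168.6, 197, 207 and 249 CPM in injured Lepr-ctrl nerves, a change of -1.16 ± 0.23 (adjusted p = 3.82e-05). In Lepr-cKO nerves healthy and injured ranges overlapped at both times: the change was -0.47 ± 0.20 at 2 wpc (adjusted p = 0.0376) and -0.39 ± 0.22 at 4 wpc (adjusted p = 0.13). Without mouse M169 the change at 4 wpc was -0.66 ± 0.23 and was called (adjusted p = 0.0141). The call at 2 wpc was lost when the injured nerve of M126, M128, M135 or M138 was left out (adjusted p up to 0.103, -0.39 without M126). With the mouse as a block the change in Lepr-ctrl at 2 wpc was -0.38 (adjusted p = 0.0513) and that in Lepr-cKO at 4 wpc was -0.49 (adjusted p = 0.0188).

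Gjb1 (chromosome X, 101376378 to 101385629, plus strand), the connexin of the paranodal loops and incisures, fell from 155 to 195 CPM in healthy to 11.1, 29.2, 46.1, 50.8 and 61.8 CPM in injured Lepr-ctrl nerves at 2 wpc. This was a decrease of 4.32-fold (-2.11 ± 0.26 on the log2 scale, adjusted p = 1.61e-08). The decrease was 5.17-fold in Lepr-cKO at 2 wpc, 3.94-fold in Lepr-ctrl at 4 wpc and 2.37-fold in Lepr-cKO at 4 wpc, with adjusted p = 1.07e-09, 2.92e-07 and 0.00028. Healthy and injured values of Gjb1 did not overlap in any comparison.

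Cadm4 (chromosome 7, 24482023 to 24504539, plus strand) fell from 1837, 1959, 1978, 2047 and 2500 CPM to 366, 910, 965, 1059 and 1725 CPM in Lepr-ctrl nerves at 2 wpc. Mouse M130 had the highest injured value and mouse M144 the lowest, and the log2 fold change was -1.04 ± 0.25 (adjusted p = 0.000547). At 4 wpc it fell from between 2167 and 2488 CPM to 337, 448, 530 and 572 CPM, a change of -2.28 ± 0.28 (adjusted p = 1.76e-08). In Lepr-cKO nerves the changes were -1.25 ± 0.25 at 2 wpc (adjusted p = 3.93e-05) and -1.23 ± 0.27 at 4 wpc (adjusted p = 0.000266). Injured Lepr-cKO values at 4 wpc were spread widely, at 498, 693, 882 and 1860 CPM, and without mouse M169, the highest, the change was -1.74.

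Both nerves of 17 mice could be compared within the animal. Nfasc, Nrcam, Ank3, Sptbn4, Cntn1, Gjb1 and Cadm4 were lower in the injured than in the healthy nerve in 17 of 17 mice. Cntn1 was left at a median of 3.23% of the healthy nerve (range 0.352% to 7.4%), Nfasc at 19.6% (8.38% to 29.2%) and Gjb1 at 26.8% (10.5% to 55.5%). Cadm4 was left at 39% (14.5% to 93.9%), Nrcam at 38.4%, Ank3 at 38.1% and Sptbn4 at 30.4%. Gldn was lower in 15 of 17 mice, at a median of 63.8%, and Cntnap1 in 4 of 17, at a median of 115%. The range of Cntn1 over mice overlapped that of Sptbn4 (from 3.68%) and of no other member, and the range of Cntnap1 (from 92.1%) overlapped those of Gldn (up to 108%) and Cadm4.

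**Figure D3:**
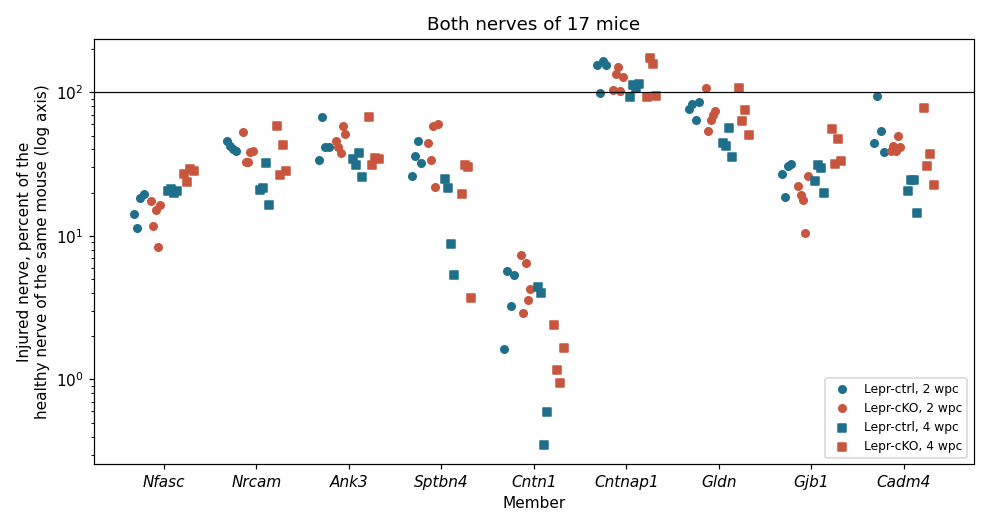
Level of each tested member (x axis) in the injured nerve as a percent of the healthy nerve of the same mouse (y axis, log scale), 1 point per mouse, circles for 2 wpc and squares for 4 wpc, blue for Lepr-ctrl and red for Lepr-cKO. The line marks 100%, which all 17 points lie under for 7 of the 9 members.

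Cntn2 (chromosome 1, 132509427 to 132543256, minus strand), a contactin of the juxtaparanode beside the paranode, was at the edge of detection. It had 0 to 13 counts per library. The 4 healthy groups summed to 19, 31, 8 and 11 counts (Lepr-ctrl and Lepr-cKO at 2 wpc, then at 4 wpc) and the injured groups, in the same order, to 7, 9, 2 and 3 counts. In each injured group 3 libraries had no count, against at most 1 in a healthy group. When tested without the filter on low counts, its log2 fold change in Lepr-ctrl nerves at 2 wpc was -1.15 (adjusted p = 0.421), so that a change with injury was not detectable at this depth.

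Whether the 2 genotypes differ at the node and paranode was asked next. In healthy nerves, 0 of 9 members were called at 2 wpc or at 4 wpc in edgeR or in DESeq2, where 0.0108% and 0.00542% of all genes were called, and 0 had an unadjusted p under 0.05. The log2 fold changes of Lepr-cKO over Lepr-ctrl lay between -0.11 and 0.25 in healthy nerves, with the widest 95% interval for Sptbn4 at 4 wpc (-0.61 to 0.84). In injured nerves at 2 wpc, 0 of 9 were called in either tool and 0 had an unadjusted p under 0.05, against 0.58% of all genes called. There the differences ran from -0.26 for Sptbn4 to 0.44 for Cntn1. Nfasc differed by -0.10 (95% interval -0.44 to 0.24), Cadm4 by -0.12 (-0.62 to 0.39) and Gldn by 0.04 (-0.38 to 0.47).

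In injured nerves at 4 wpc, 1 of 9 members, Cadm4, was called, against 1.31% of all genes. Its 4 Lepr-ctrl values were 337, 448, 530 and 572 CPM and its 4 Lepr-cKO values 498, 693, 882 and 1860 CPM. The groups overlapped through Lepr-cKO mouse M177, and mouse M169 lay far above the rest. The log2 fold change was 1.06 ± 0.28, a 2.08-fold higher level in Lepr-cKO (adjusted p = 0.0493). Without mouse M169 it was 0.55 and no longer called (adjusted p = 0.334). The call was also lost without Lepr-ctrl mouse M170, M171 or M178 or Lepr-cKO mouse M176 (adjusted p = 0.106, 0.103, 0.158 and 0.114), and kept without M173, M175 or M177. Over all alternatives the adjusted p ranged from 0.00469 to 0.334. The Schwann cell marker sum was 46140 CPM in mouse M169, 36900 CPM in M176, 30730 CPM in M175 and 15830 CPM in M177. In the 4 Lepr-ctrl nerves it was 12980 to 17910 CPM. The mitochondrial share was 2.95%, 9.84%, 12.6% and 20.2% in these Lepr-cKO mice, against 17.2% to 21.6% in the Lepr-ctrl nerves. Genotype and make-up thus differed together in these nerves, and their parts were not tested.

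Gldn, Nrcam and Gjb1 had a positive difference at 4 wpc but did not pass the threshold. Gldn was at 168.6, 197, 207 and 249 CPM in Lepr-ctrl and 187, 317, 385 and 533 CPM in Lepr-cKO nerves, a difference of 0.79 ± 0.23 (adjusted p = 0.0682, unadjusted p = 0.00178). Nrcam was at 16.2, 21.9, 25.1 and 31.0 CPM against 22.4, 26.8, 44.4 and 62.6 CPM, a difference of 0.73 ± 0.24 (adjusted p = 0.0886). Gjb1 was at 41.8, 46.7, 52.4 and 60.8 CPM against 55.5, 60.7, 89.0 and 111.5 CPM, a difference of 0.65 ± 0.29 (adjusted p = 0.196). In each of these 3 genes mouse M169 had the highest and mouse M177 the lowest Lepr-cKO value. Without mouse M177, whose mitochondrial share was 20.2%, Gldn and Nrcam were called together with Cadm4 (adjusted p = 0.00566, 0.0123 and 0.00469). Without mouse M169, 0 members were called, and the differences were 0.53 for Gldn (adjusted p = 0.321), 0.40 for Nrcam (adjusted p = 0.438) and 0.44 for Gjb1 (adjusted p = 0.526).

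Nfasc was the 1 member of 9 whose genotypes did not overlap, where 5.68% of all genes did not, at 207, 217, 218 and 221 CPM in Lepr-ctrl and 237, 246, 247 and 333 CPM in Lepr-cKO nerves at 4 wpc. The difference was 0.30 ± 0.19 on the log2 scale (adjusted p = 0.374), with a 95% interval of -0.08 to 0.68. Cntn1 was lower in Lepr-cKO (-0.60 ± 0.59, adjusted p = 0.599) on counts of 1 to 13 per library. Ank3 differed by 0.18 ± 0.21 and Cntnap1 by 0.23 ± 0.18.

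**Figure D4:**
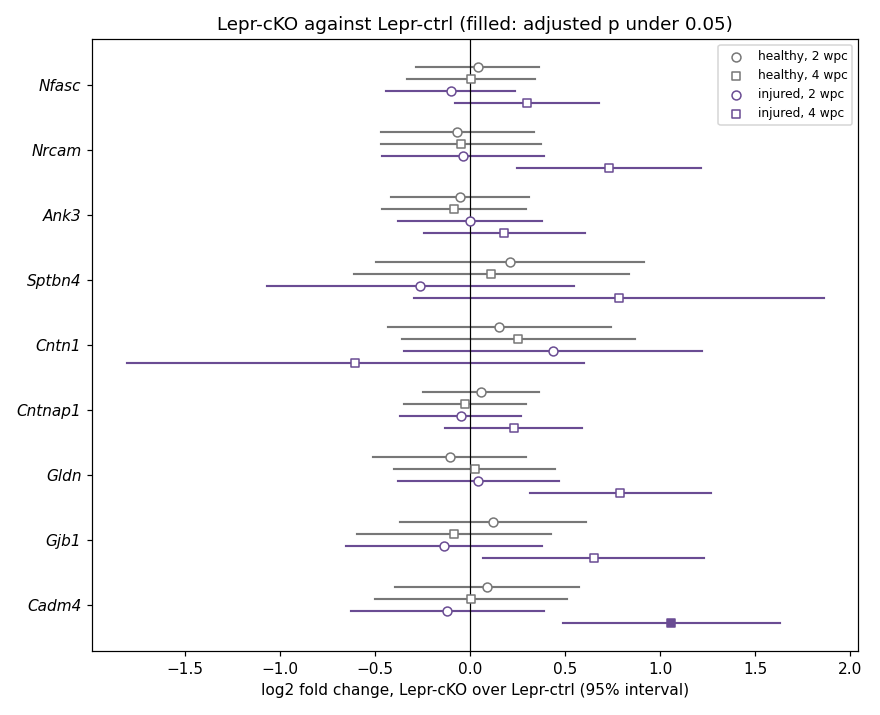
Log2 fold change of Lepr-cKO over Lepr-ctrl (x axis) for each tested member (y axis) with its 95% interval, grey for healthy and purple for injured nerves, circles for 2 wpc and squares for 4 wpc, filled where the adjusted p is under 0.05. Cadm4 in injured nerves at 4 wpc (1.06) is the filled point, and the healthy points lie between -0.11 and 0.25.

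**Figure D5:**
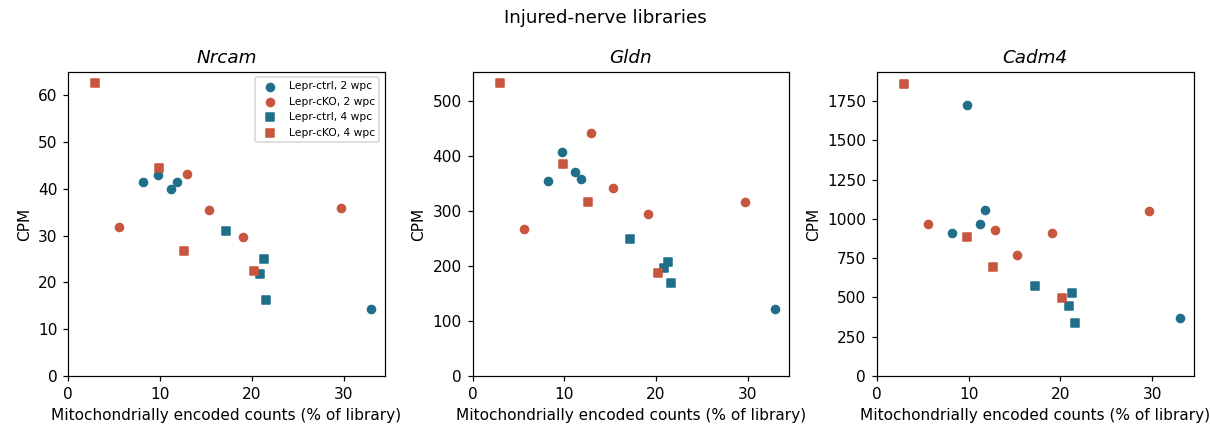
CPM of Nrcam, Gldn and Cadm4 (y axes, starting at 0) against the percent of mitochondrially encoded counts (x axis) in the 18 injured libraries, circles for 2 wpc and squares for 4 wpc, blue for Lepr-ctrl and red for Lepr-cKO. The library with the highest share (33%, mouse M144) has the lowest Nrcam and Gldn, and the one with the lowest share (2.95%, mouse M169) the highest of all 3 genes. At 4 wpc, Gldn was at 533, 385, 317 and 249 CPM in M169 (2.95%), M176 (9.84%), M175 (12.6%) and M173 (17.2%). Cadm4 was at 1860, 882, 693 and 572 CPM in these mice. Nerves at 20.2% to 21.6% had 168.6 to 207 CPM of Gldn and 337 to 530 CPM of Cadm4. Whether the share plays a part was not tested. Other libraries at 2 wpc do not keep this order. Mouse M135, at 29.7%, has Nrcam at 35.8, Gldn at 316.9 and Cadm4 at 1052 CPM. Mouse M126, at 5.56%, has them at 31.8, 268 and 964 CPM.

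The response to injury was also compared between genotypes directly, as the difference of the injured-to-healthy changes. At 2 wpc and at 4 wpc 0 of 9 members and 0% of all genes were called. At 2 wpc 0 members had an unadjusted p under 0.05, and at 4 wpc 3 had, Cadm4 (1.05 ± 0.37, unadjusted p = 0.00809, adjusted p = 0.385), Nrcam (0.78 ± 0.32, adjusted p = 0.402) and Gldn (0.77 ± 0.31, adjusted p = 0.402), where 10.9% of all genes had such a p. Without mouse M169 these differences were 0.56, 0.47 and 0.52, with unadjusted p = 0.0923, 0.123 and 0.0932. With the mouse as a block, 0 members were called as well. DESeq2 called 0 of 9 members in either comparison.

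Whether the response changed between 2 and 4 wpc was tested as the change of the injured-to-healthy difference, which sets different mice side by side. In Lepr-ctrl nerves 1 of 9 members fell further, Cadm4, by -1.24 ± 0.37 on the log2 scale (adjusted p = 0.0273), against 5.05% of all genes that fell and 4.05% that rose. The call was lost without the injured nerve of M130 at 2 wpc (-0.98) or of M178 at 4 wpc, with adjusted p up to 0.0601. With the mouse as a block 3 members fell, Cadm4 (-1.39, adjusted p = 0.0126), Nrcam (-0.92, adjusted p = 0.0202) and Gldn (-0.79, adjusted p = 0.0375), and the same 3 were called without mouse M144. Sptbn4 changed by -1.84 ± 0.62 (adjusted p = 0.0532), and by -1.11 without mouse M144 (adjusted p = 0.16). Its injured nerves at 4 wpc had 1 to 6 counts.

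In Lepr-cKO nerves 1 of 9 members rose again and 0 fell, against 1.51% and 0.575% of all genes. This was Nfasc, which in the injured nerves went from 66.6, 101, 125.8, 140 and 152 CPM at 2 wpc to 237, 246, 247 and 333 CPM at 4 wpc. The change of its response was 0.96 ± 0.24 (adjusted p = 0.0233), and the call was lost without the healthy nerve of M177 or the injured nerve of M176 (0.81 and adjusted p = 0.0997 without the latter). In Lepr-ctrl the change was 0.52 ± 0.24 (adjusted p = 0.176), and the injured nerves went from 89.7 to 184 CPM at 2 wpc to 207 to 221 CPM at 4 wpc. Gjb1 changed by 1.13 ± 0.36 in Lepr-cKO (adjusted p = 0.096, and 1.15 with adjusted p = 0.0172 under the block). The response of Cntn1 in Lepr-cKO changed by -1.70 ± 0.56, which was not called (adjusted p = 0.109). It was called without mouse M126 (-1.94, adjusted p = 0.0382) and in DESeq2 (-1.72, adjusted p = 0.0281). The mean of its injured nerves was 0.758 CPM at 2 wpc and 0.286 CPM at 4 wpc, the latter on 4 to 9 counts per library. The 2 courses themselves were compared as well, and 0 of 9 members and 0% of all genes were called, in DESeq2 0 members too. Cadm4 alone among the members had an unadjusted p under 0.05 (1.26 ± 0.51, unadjusted p = 0.0182, adjusted p = 0.612), as 7.84% of all genes had. Without mouse M169 it was 0.76 (unadjusted p = 0.0882).

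Healthy nerves of the 2 time points gave a baseline for these courses. Of the members, 0 were called in Lepr-ctrl (1.64% of all genes) or in Lepr-cKO (0.293%), and DESeq2 also called 0. Sptbn4 was the 1 member with an unadjusted p under 0.05 in each, where 16.1% of all genes had one in Lepr-ctrl and 9.92% in Lepr-cKO. Its Lepr-ctrl groups did not overlap, as for 8.68% of all genes. The change was 0.81 ± 0.36 in Lepr-ctrl (unadjusted p = 0.0314, adjusted p = 0.253) and 0.71 ± 0.34 in Lepr-cKO (unadjusted p = 0.044, adjusted p = 0.477). Its healthy values were 0.748 to 1.83 CPM at 2 wpc and 1.24 to 2.61 CPM at 4 wpc.

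Further genes of the axon-glia contacts, 24 of which were listed and all tested, moved in both directions. In Lepr-ctrl nerves at 2 wpc, 17 fell and 4 rose, with a median of -1.01, against 30.2% and 33.7% of all genes. At 4 wpc 19 fell and 3 rose, against 31.2% and 32.4%. In Lepr-cKO nerves 15 fell and 6 rose at 2 wpc, against 29.2% and 35.9%, and 16 fell and 2 rose at 4 wpc, against 25.8% and 29.6%. The largest changes were those of Cadm3 (-3.56 ± 0.26, adjusted p = 8.44e-14), the axonal partner of Cadm4, which went from 1100 to 1181 CPM in healthy to 27.6 to 138.5 CPM in injured nerves, Cntnap2 (-3.02 ± 1.03, adjusted p = 0.0108), a partner of Cntn2 at no more than 0.797 CPM in these nerves, and Vcan (-2.14 ± 0.30, adjusted p = 2.09e-07), a matrix proteoglycan. Those that rose were Ezr, an actin linker of the microvilli, Cadm1, Adam23 and Epb41l3, by 0.66 to 1.29. With the 3 libraries that stand apart left out, 17 of the 24 fell in Lepr-ctrl and 16 in Lepr-cKO nerves at 2 wpc. At 4 wpc 20 and 18 then fell, and those that rose numbered 5 and 6 at 2 wpc and 3 and 3 at 4 wpc.

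Between genotypes, 1 of the 24 was called at 2 wpc and 2 at 4 wpc in injured nerves, against 0.58% and 1.31% of all genes. In healthy nerves 0 were called, against 0.0108% and 0.00542% of all genes. At 2 wpc this was Cntnap2, at 5.51 CPM in Lepr-cKO mouse M126, the library with muscle markers, and at 0 to 0.115 CPM in the other 4 Lepr-cKO nerves. At 4 wpc Gjc3, a further connexin (1.01, adjusted p = 0.0366), and Adam23, a receptor of Lgi proteins (0.99, adjusted p = 0.0477), were higher in Lepr-cKO. Without mice M144, M126 and M169, 0 of the 24 were called at either time. The changes of Cntnap2, Gjc3 and Adam23 were then 0.58, 0.85 and 0.70 (adjusted p = 0.853, 0.0587 and 0.159).

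Relatives of the members within their gene families changed unevenly. Of 26 listed, 20 were tested, and in Lepr-ctrl nerves at 2 wpc 9 fell and 4 rose, with a median of -0.48, against 30.2% and 33.7% of all genes. Sptb, a spectrin related to Sptbn4, fell by -5.10 ± 0.45 on the log2 scale (adjusted p = 7.21e-12), from 695 to 847 CPM in healthy to 6.88 to 36.7 CPM in injured nerves. Cadm3 fell as given above, and Gjb2, a connexin related to Gjb1, rose by 3.10 ± 0.92 (adjusted p = 0.00401). In Lepr-ctrl nerves at 4 wpc 12 fell and 2 rose, against 31.2% and 32.4%. In Lepr-cKO nerves 9 fell and 5 rose at 2 wpc, against 29.2% and 35.9%, and 11 fell and 4 rose at 4 wpc, against 25.8% and 29.6%. With the 3 libraries that stand apart left out, 9 fell in Lepr-ctrl and 10 in Lepr-cKO nerves at 2 wpc. At 4 wpc 14 and 13 then fell, and those that rose numbered 5 and 4 at 2 wpc and 2 and 3 at 4 wpc. Between genotypes, Ank1 was called besides Cntnap2 and Gjc3, at 101 CPM in Lepr-cKO mouse M126 at 2 wpc and at 0.294 to 1.24 CPM in the other 4 injured Lepr-cKO nerves. Without the 3 libraries that stand apart it differed by -0.07 (adjusted p = 0.972).

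Of 12 genes of the myelin sheath, 10 fell in Lepr-ctrl and 11 in Lepr-cKO nerves at 2 wpc, and 12 and 8 at 4 wpc, with 0 rising. With the 3 libraries that stand apart left out, 10 and 11 fell at 2 wpc and 12 and 10 at 4 wpc. Of all genes, 30.2%, 29.2%, 31.2% and 25.8% fell in these comparisons. The largest changes in Lepr-ctrl at 2 wpc were Drp2 (-3.78 ± 0.26, adjusted p = 2.88e-14), Prx (-2.80 ± 0.27, adjusted p = 4.79e-11) and Pllp (-2.32 ± 0.30, adjusted p = 4.06e-08). The median of the list was -1.69, beside -1.14 for the node and paranode members. Between genotypes 0 of the 12 were called in injured or healthy nerves in edgeR, against 0.00542% to 1.31% of all genes. The median of the 12 was 0.80 in injured nerves at 4 wpc.

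Over the 39 libraries, the profile of log2 CPM of each member was set against that of all genes tested, as a description over libraries that share the large injury difference. Nfasc was most like Lctl (r = 0.994) and Pacs2 (r = 0.993), and Gjb1 was most like Hepacam (r = 0.99) and the myelin gene Pllp (r = 0.989). Nrcam followed Sorcs1 (r = 0.988) and Lrp11 (r = 0.985), Ank3 followed Jmy (r = 0.97) and Cdh2 (r = 0.967), and Cadm4 followed Cd151 (r = 0.978) and Prnp (r = 0.976). Gldn was most like Txndc16 (r = 0.961) and Ldlrad3 (r = 0.956), and Cntn1 most like 9330188P03Rik (r = 0.962) and Gm40331 (r = 0.96). The likeness was lower for Sptbn4, to Tmem59l (r = 0.886) and Pex5l (r = 0.845), and for Cntnap1, to Col11a2 (r = 0.819) and Slc4a3 (r = 0.808). After the group means were taken out, the deviations of Nrcam and Gldn from their groups still went together over the 39 libraries (r = 0.929), as did those of Nrcam and Cadm4 (r = 0.85) and of Gldn and Cadm4 (r = 0.812). The deviations of Nfasc and Cadm4 went together little (r = 0.0533), and those of Cntn1 and Cntnap1 went opposite ways (r = -0.496). The last value rests in part on low counts, as Cntn1 had 1 to 33 counts in each injured library.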

How the data were processed

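Bulk RNA-seq of 39 libraries was used. The deposited values are raw counts per gene that the authors made with STAR 2.5 (GRCm38) and featureCounts 1.5.0-p1 from single-end reads demultiplexed with bcl2fastq 2.20.0.422, per the labels and the study's methods. Counts were not normalized or filtered.

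Groups came from the sample titles. Counts were fitted here in R 4.3.3 with edgeR 4.0.16 over all 39 libraries (8 groups), with TMM factors, an expression filter (minimum count 10, minimum total 15) and quasi-likelihood tests. Log2 CPM used a prior count of 2 and RPKM the union exon length of GENCODE M21. The members and lists were chosen with earlier results of these data known. Named were all members, their 2 nearest profiles, and per list the 3 called genes with the largest change and any called between genotypes. The fit was tested on simulated data.

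Alternatives tried were DESeq2 1.42.0 and, within edgeR, DESeq2's size factors, normalization without mitochondrially encoded genes, dropping the expression filter or asking for 10 counts or more per library, sex as a covariate, fits of the compared groups alone, calls that also need an absolute log2 fold change above 1, the mouse as a block, and omitting single libraries from groups with 4 or 5 of them. Leaving out mice M144, M126 and M169 together was added after seeing the data. The block pairs the 2 nerves of a mouse, given by the animal number in the titles. Their deviations from the group means correlated at -0.12 to 0.57 over 5000 genes, above 0.1 in 14 of 17 mice. Whether a mouse shared a litter or day with another is not given in the sources used here. Figures were drawn with matplotlib from these results.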

Additional observations from a re-analysis of the deposited data

Results flagged for a closer look

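Of 72 groups of values checked (9 members in 8 groups), 7 held a library far from the others of its group, where chance flags about 1 in 20 groups. Lepr-ctrl mouse M144 (injured, 2 wpc) had Nrcam at 14.3 CPM, with the next library at 40.1 CPM, Gldn at 121.8 CPM, with the next at 355 CPM, and Sptbn4 at 1.61 CPM, with the next at 0.419 CPM. Healthy Lepr-ctrl mouse M168 at 4 wpc had Nfasc at 759 CPM, with the next at 1024 CPM, and Ank3 at 413.5 CPM, with the next at 577 CPM. Nfasc was at 332.6 CPM in injured Lepr-cKO mouse M176 at 4 wpc, with the next at 247 CPM. Ank3 was at 549 CPM in healthy Lepr-cKO mouse M138 at 2 wpc, with the next at 492 CPM.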

How the results depend on the processing

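The decrease with injury was kept under the alternatives: 7 to 8 members fell in each of the 4 comparisons with each library left out in turn, and no called member changed sign in any alternative. Under the mouse as a block the members that fell numbered 7, 8, 8 and 8, and the block changed no other call than those named here and beside the results. The rise of Cntnap1 (1 member in Lepr-ctrl at 2 wpc) was lost with no expression filter (0 members) and with a log2 fold change above 1 required (0), and was 0 to 1 with libraries left out. Members that rose numbered 1 instead of 0 in Lepr-cKO at 2 wpc with a term for sex and in Lepr-cKO at 4 wpc with at least 10 counts in every library or without mice M144, M126 and M169, and 0 to 1 with libraries left out.

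Genotype calls in injured nerves at 4 wpc were less stable. Members called numbered 2 in DESeq2 and 0 with DESeq2 size factors, no expression filter, a term for sex, the compared groups only, or mice M144, M126 and M169 left out, and 0 to 3 with each library left out. Of all genes, 188 rose and 53 fell there, against 407 and 224 in DESeq2, 71 and 14 with no expression filter and 0 with the compared groups only. At 2 wpc 107 genes were called, against 25 in DESeq2 and 0 with the compared groups only. For the change from 2 to 4 wpc, members that fell in Lepr-ctrl numbered 2 in DESeq2, without mitochondrially encoded genes and with a term for sex, 3 under the block and without mice M144, M126 and M169, and 0 to 3 with libraries left out. In Lepr-cKO, 1 fell in DESeq2, with the compared groups only and without the 3 mice, and 0 to 1 with libraries left out. There 2 rose under the block and without the 3 mice, 0 rose with the compared groups only and with a log2 fold change above 1 required, and 0 to 1 with libraries left out. Between healthy nerves of Lepr-ctrl, 1 member (Sptbn4) was called with the compared groups only. The cause of these changes was not tested, other than that the compared groups only hold fewer samples. The lowest totals were in injured nerves at 4 wpc, where Cntn1 and Sptbn4 had as few as 1 count.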
